A study of Mus musculus with 80 samples.

Results

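Esr1 encodes estrogen receptor alpha, and its RNA was followed here through the hematopoietic stem cells (HSC) of mice and their progenitors, the HPC, from fetal life to 8 weeks, and through neonatal cells of several Ifnar and Flt3 genotypes. It was 1 gene of 41388 in the table of the age series and of 40481 in the table of the genotype series, matched by its mouse symbol to the Ensembl identifier ENSMUSG00000019768. The gene was picked from these data for its large rise in HPC between E16 and 8 weeks. Its HPC values at those ages are therefore given as a description without a test, while the HSC ages, the HPC ages from P0 to P14 and the genotypes were not used to choose it.

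Estrogen receptor alpha is a nuclear receptor, a transcription factor that is held by chaperones in the absence of hormone and binds DNA as a dimer once it has bound an estrogen. On DNA it recruits coactivators or corepressors, often at sites opened by other factors such as GATA proteins. Its palindromic binding site is called the estrogen response element. In mice, hematopoietic stem cells are known to respond to estrogen with more cell division, above all in females and in pregnancy, and the receptor alpha is the form known for this response.

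In the GENCODE M21 annotation of GRCm38, Esr1 spans chr10:4611593-5005614 on the plus strand, with 10 transcripts, of which 4 are protein-coding. No exon of another gene of that annotation lay within this span. RefSeq on GRCm38.p6 gives Esr1 a pair of transcription starts 98169 bases apart, and 2 of the protein-coding transcripts begin near the upstream start and 2 near the downstream one. The deposited values sum the reads of all exons, so which start the RNA came from was not measured. The 250 bases before each start are shown because the count adds the output of both, and because the genotype series removes an interferon receptor. Capitals mark a match to GAAANNGAAA, the core of the interferon-stimulated response element, on either strand. Both sequences are from RefSeq, 5′ to 3′ on the plus strand.
Upstream start, chr10:4611739-4611988: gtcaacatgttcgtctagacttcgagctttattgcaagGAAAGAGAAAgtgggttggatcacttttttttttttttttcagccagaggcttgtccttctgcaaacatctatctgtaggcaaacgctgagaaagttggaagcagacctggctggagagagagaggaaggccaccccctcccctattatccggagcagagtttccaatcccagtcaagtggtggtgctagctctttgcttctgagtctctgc
Downstream start, chr10:4709908-4710157: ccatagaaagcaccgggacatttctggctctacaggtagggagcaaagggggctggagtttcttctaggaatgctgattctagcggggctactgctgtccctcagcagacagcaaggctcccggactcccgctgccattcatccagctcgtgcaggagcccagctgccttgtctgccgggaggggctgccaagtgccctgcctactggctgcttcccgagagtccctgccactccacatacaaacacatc
The upstream window held 1 such match and the downstream window none, while 2.98% of 32851 mouse promoter windows of the same length held at least 1. Neither window held the full estrogen response element GGTCANNNTGACC, which 0.0639% of windows held, nor either arm of it alone, GGTCA or TGACC, which 35.2% held. Neither held the GATA site AGATAA on either strand, which 9.99% held. A match is a run of letters and not a measured binding site.

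The libraries were bulk RNA-seq of isolated cells from mice of the B6 background, per the series' design text. HPC were sequenced at E16 (3 libraries), P0 (4), P7 (4), P14 (5) and 8 weeks, called Adult (4), and HSC at E14 (3), E16 (4), E18 (3), P0 (4), P7 (4), P14 (4) and Adult (4). The genotype series held HSC at P0 labelled Ifnar ko (4) or wild type (5), and HPC at P0 labelled Ifnar ko (4) or wild type (4). It also held HPC at P14 that were Ifnar -/- Flt3 ITD/+ (5), Ifnar -/- Flt3 +/+ (4), Ifnar +/- Flt3 ITD/+ (4) or Ifnar +/- Flt3 +/+ (4). Ifnar is the receptor of type I interferon, Flt3 is a growth factor receptor of progenitors, and ITD is the internal tandem duplication that activates it in leukemia. All P14 genotype mice carried at least 1 mutant Ifnar allele, so none was wild type. The labels do not give the sorting markers, the organ, the sex, the Ifnar subunit or exon deleted, or whether animals were pooled. Nothing in them says that libraries of a group came from separate animals, so p-values measure the spread between libraries, which may be technical.

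Library depth ran in the age series from 6.95 to 24.03 M reads for HSC and between 7.91 and 25.4 M reads for HPC, and in the genotype series from 11.7 to 46.3 M reads at P0 and between 58.4 and 92.1 M reads at P14. At these depths 3 reads of Esr1 corresponded to between 0.00238 and 0.0316 RPKM (reads scaled to exon length and library size), and intervals from read numbers cover counting error only. The cell labels were set against their markers. All 12 HSC markers were above 1 RPKM in every Adult and every E16 HSC library. In HPC, 9 of the 12 were so in every Adult library and 9 in every E16 library. The 12 summed to 855 to 1248 RPKM in Adult HSC, against 576 to 664 RPKM in Adult HPC. The 8 progenitor markers summed to 357 to 389.5 RPKM in Adult HSC, against 1235 to 1566 RPKM in Adult HPC. Of these, Mpo, a progenitor enzyme, averaged 1.52 RPKM in Adult HSC and 270 RPKM in Adult HPC. Prtn3 alone of the 8 went the other way, at 187 RPKM in Adult HSC and 161 RPKM in Adult HPC. Ifnar1 RNA was not lower in the Ifnar ko libraries (9.88 to 11.9 RPKM in ko HSC, against 8.69 to 12.7 RPKM in wild-type HSC), which does not test the label, since the part deleted is not known. The library of Ifnar +/- Flt3 +/+ replicate 2 stood apart, with the lowest correlation to the others of its group of all 80 libraries (0.956 across genes). Results that rest on it are given with and without it.

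In HPC, Esr1 was low before birth and higher at each later age. Its level was 0.0845, 0.190 and 0.294 RPKM in the 3 E16 libraries, 0.308, 0.419, 0.463 and 0.529 RPKM at P0, and 0.970, 1.01, 1.08 and 1.22 RPKM at P7. At P14 it was 1.80, 2.09, 2.16, 3.35 and 4.42 RPKM, and in Adult cells 5.28, 6.05, 6.29 and 7.20 RPKM. No library of an age overlapped with any library of the age before it. In ranks among the genes detected in the same library, Esr1 stood between the 61.3 and 66.8 percentile in Adult HPC and between the 6.97 and 23.5 percentile in E16 HPC. In bulk RNA, fewer cells with the transcript and less transcript per cell cannot be told apart.

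Between the postnatal ages, which the choice of the gene did not use, each step of HPC was larger than the spread between libraries. Esr1 was 2.45-fold higher at P7 than at P0, a log2 fold change of 1.29 ± 0.27 (SE, 4 libraries each, adjusted p = 0.0109), in a comparison where 1.5% of 14754 genes were called at an adjusted p under 0.05. At P14 it was 2.78-fold higher than at P7, a log2 fold change of 1.48 ± 0.25 (5 against 4 libraries, adjusted p = 0.000871, 9.84% of genes called). With the level of Y-linked genes as a covariate this step was 1.16 on the log2 scale and no longer called (adjusted p = 0.0566). All HPC libraries at P7 held Y-linked RNA and 1 at P14 held it at a high level, and the cause of the lost call was not tested. From P0 to P14 the log2 fold change was 2.77 ± 0.27 (adjusted p = 5.25e-07, 9.41% of genes called). Progenitor markers summed to 1771 to 9236 RPKM in P14 HPC, against 1307 to 1540 RPKM at P7 and 1397 to 1724 RPKM at P0. The part of this difference in the steps of Esr1 was not tested.

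The ages that served to choose the gene extended this course. Adult HPC averaged 6.20 ± 0.79 RPKM (SD, n = 4) and E16 HPC 0.190 ± 0.105 RPKM (n = 3), with a fitted log2 fold change of 4.80. The corresponding steps were 1.08 on the log2 scale for P0 against E16 and 0.95 for Adult against P14. In these comparisons 27% of genes were called for Adult against E16, 3.27% for P0 against E16 and 28.9% for Adult against P14. Each HPC age carries its own title prefix, whose meaning the labels do not give, so age and whatever the prefix marks cannot be told apart in HPC.

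**Figure D1:**
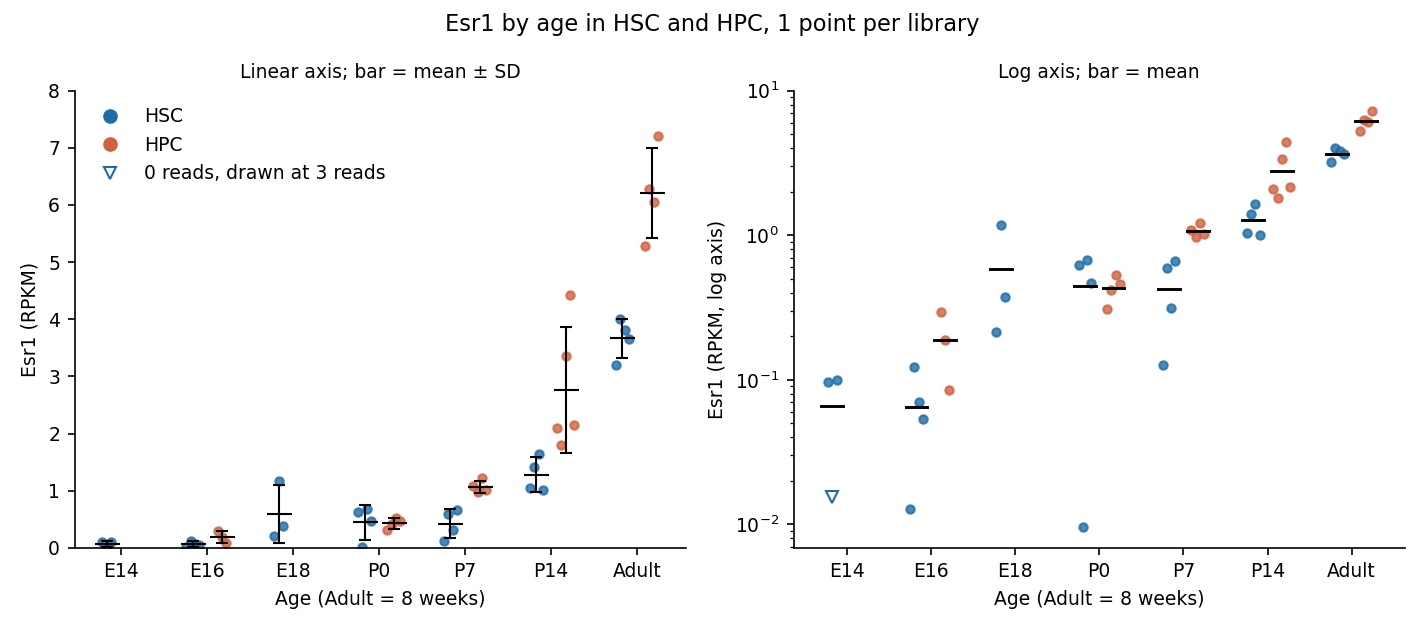
Esr1 level (RPKM) by age in HSC (blue) and HPC (orange), 1 point per library, on a linear axis with mean ± SD at left and on a log axis with the mean at right. The Adult libraries of both cell types sit above every earlier library of the same cell type, and the open triangle is the E14 HSC library with 0 reads, drawn at its level for 3 reads.

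In HSC, Esr1 was near the limit of detection at E14 and E16 and was highest in Adult cells. At E14 the 3 libraries had 25, 0 and 25 reads, or 0.0974, 0 and 0.0998 RPKM. In the library with 0 reads of Esr1, the 95% interval for counting error reached 0.0190 RPKM, and 3 reads at its depth would be 0.0155 RPKM. At E16 the 4 libraries had 3, 27, 11 and 9 reads, or 0.0128, 0.124, 0.0702 and 0.0535 RPKM, so the 2 fetal ages overlapped.

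From E18 on, HSC libraries varied widely among themselves. The 3 E18 libraries had 0.215, 1.17 and 0.377 RPKM, and replicate 2 stood above the others. The 4 P0 libraries had 0.625, 0.00960, 0.680 and 0.469 RPKM. Replicate 2 at P0 held only 3 reads of Esr1, while the others held 109 to 186 reads. The 4 P7 libraries had 0.128, 0.590, 0.315 and 0.668 RPKM, a range that overlapped with P0 and with E18.

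The 2 oldest ages of HSC were more even. At P14 the libraries had 1.04, 1.41, 1.65 and 1.01 RPKM, all above P7. In Adult HSC they had 3.20, 3.997, 3.81 and 3.66 RPKM, all above P14. Esr1 stood between the 50.9 and 56.6 percentile of detected genes in Adult HSC and between the 1.09 and 10.3 percentile in E16 HSC.

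Adult HSC averaged 3.67 ± 0.34 RPKM and E16 HSC 0.0650 ± 0.0459 RPKM (SD, n = 4 each), a ratio of means of 56.4. On the tested scale of log2(RPKM + 0.5), which understates changes from so low a level, the fold change was 2.89 ± 0.30 (SE, 95% interval 2.28 to 3.50, adjusted p = 2.4e-08), where 24.5% of 13375 genes were called and 0.71% had a larger change. Against P0, whose libraries share a title prefix with the Adult ones, Adult HSC were higher by 2.22 ± 0.30 on this scale (adjusted p = 2.79e-06, 21% of genes called). Y-linked RNA differed between these 2 groups, as given below. Adult HSC were also higher than P14 HSC by 1.25 ± 0.30 (adjusted p = 0.00966, 5.33% of genes called). That last call was lost with a pseudocount of 0.1 (adjusted p = 0.158) and with edgeR (0.249) or DESeq2 (0.305) on the recovered reads, although the libraries of the 2 ages did not overlap. E14, E16 and E18 HSC share a title prefix, as do P7 and P14 HSC, and P0 and Adult HSC. In HSC comparisons that cross prefixes, as Adult against E16 or P14 does, age and whatever the prefix marks cannot be told apart.

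The earlier steps of HSC were not called. E16 against E14 gave a log2 fold change of -0.01 (95% interval -0.66 to 0.65, adjusted p = 1, 0.0523% of genes called). E18 libraries all lay above the E16 libraries, but the change of 0.83 ± 0.32 was not called (adjusted p = 0.133, 5.44% of genes called). It was called on the recovered reads, where the log2 fold change was 3.09 with edgeR (adjusted p = 0.0376) and 3.13 with DESeq2 (adjusted p = 0.0163). P0 against E18 gave -0.16 (interval -0.82 to 0.49, adjusted p = 0.84, 4.75% called) and P7 against P0 gave 0.01 (interval -0.60 to 0.62, adjusted p = 0.995, 5.94% called). Without the P0 library that held 3 reads, these changes were 0.11 for P0 against E18 and -0.26 for P7 against P0, still not called (adjusted p = 0.903 and 0.683). P14 libraries all lay above P7 libraries, yet the change of 0.97 ± 0.30 missed the threshold (adjusted p = 0.104, 1.71% of genes called).

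**Figure D2:**
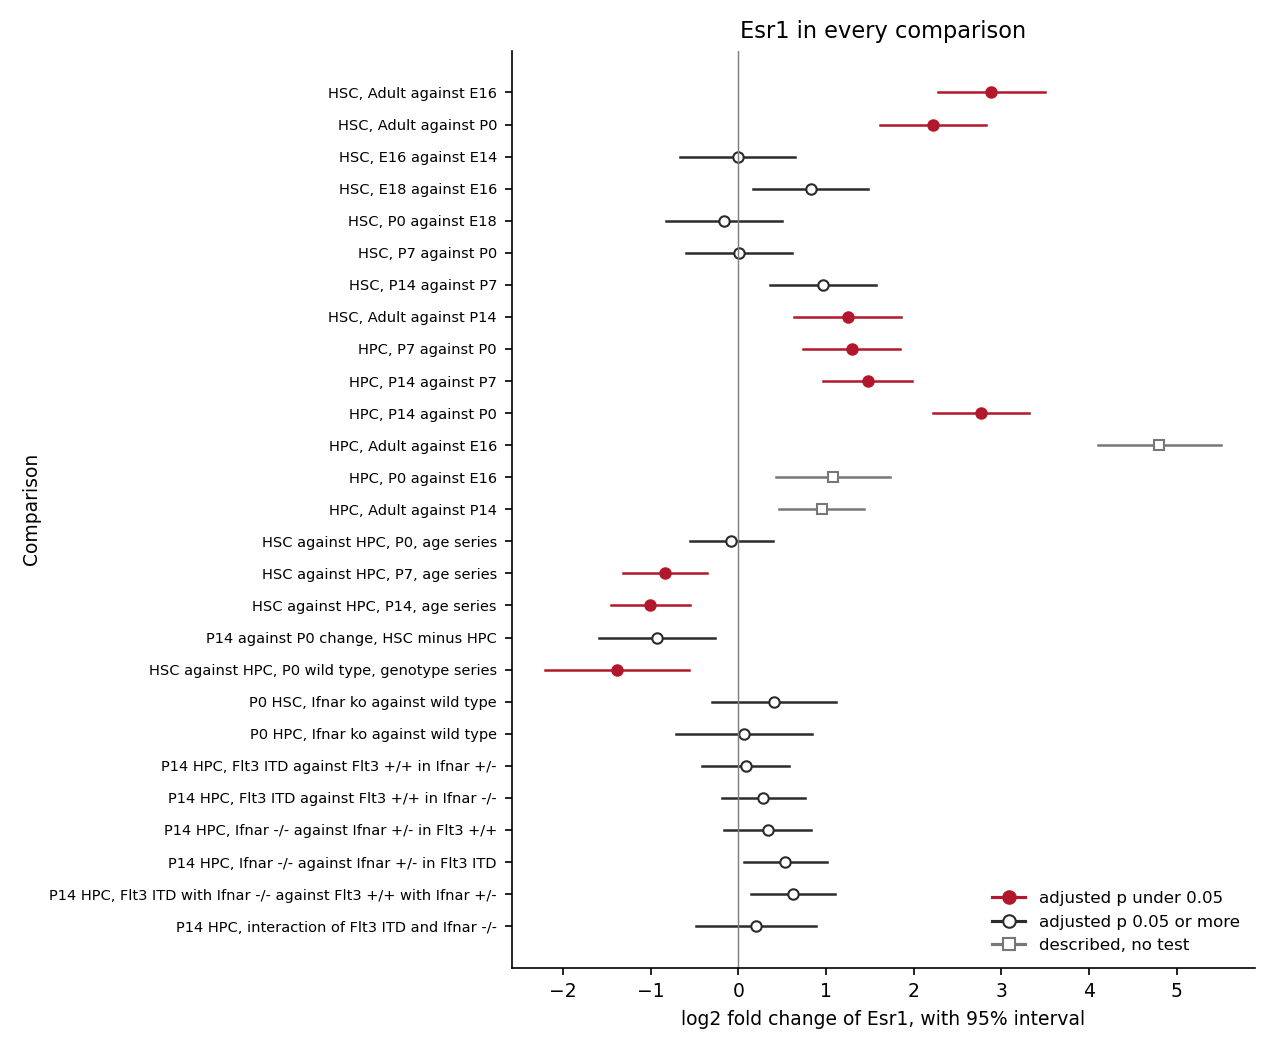
Log2 fold change of Esr1 with its 95% interval in each comparison, first-named group over second, as fitted for counts (edgeR) or for log2(RPKM + 0.5) (limma). Filled red points passed an adjusted p of 0.05, open points did not, and grey squares are the 3 HPC comparisons that use ages from which the gene was chosen and have no test.

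Ranked by mean level over both cell types, the order of the groups ran from E16 and E14 HSC (0.0650 and 0.0658 RPKM) and E16 HPC (0.190) through P7 HSC (0.425), P0 HPC (0.430), P0 HSC (0.446), E18 HSC (0.587), P7 HPC (1.07) and P14 HSC (1.28) to P14 HPC (2.76), Adult HSC (3.67) and Adult HPC (6.20). Neighbours in this order overlapped in their libraries, except that P14 HPC lay above P14 HSC and Adult HPC above Adult HSC. The cell types were tested against each other at the postnatal ages before 8 weeks. At P0, HSC averaged 0.446 ± 0.304 RPKM and HPC 0.430 ± 0.093 RPKM (n = 4 each), and the log2 difference was -0.08 (95% interval -0.55 to 0.40, adjusted p = 0.836, 38.6% of 14317 genes called). At P7, HSC had less Esr1 than HPC by -0.83 ± 0.24 (0.425 ± 0.250 RPKM in HSC, against 1.07 ± 0.11 RPKM in HPC, adjusted p = 0.00427, 41.2% of genes called). At P14 the difference was -1.00 ± 0.23 (1.28 ± 0.31 RPKM in HSC, against 2.76 ± 1.10 RPKM in HPC, adjusted p = 0.000388, 37.1% of genes called).

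The change from P0 to P14 was smaller in HSC than in HPC by -0.93 ± 0.33 on the log2 scale, which missed the threshold (adjusted p = 0.131, 2.95% of genes called). It passed with a pseudocount of 1 (-0.80, adjusted p = 0.049) and without the P0 HSC library of 3 reads (-1.19, adjusted p = 0.0224). Wild-type P0 cells of the genotype series gave another value for the cell types at birth. There, HSC had 0.0776, 0.0951, 0.213, 0.236 and 0.284 RPKM and HPC had 0.254, 0.405, 0.562 and 0.649 RPKM. HSC were lower by -1.38 ± 0.38 (adjusted p = 0.00724, 56.2% of 16053 genes called), with the highest HSC library above the lowest HPC library. HSC and HPC carry different title codes here and at every age of the age series, so cell type and whatever the codes mark cannot be told apart in any of these comparisons.

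Sex differed between the groups and was read from RNA of Xist, which females express, and of Y-linked genes. No Adult HSC library held Y-linked RNA above 1 CPM (counts scaled to library size alone) while all 4 held Xist RNA, so these libraries were female. All 4 P0 HSC libraries held Y-linked RNA, at 158 to 293 CPM, so age and sex overlapped in Adult against P0 HSC. All 4 E16 HSC libraries held Y-linked RNA too, and 3 of them Xist RNA as well, so age and sex also overlapped in Adult against E16 HSC. With the Y-linked level as a covariate, the log2 fold change of Adult against E16 HSC was 2.91 (adjusted p = 3.68e-05). The Y-linked levels of these 2 groups did not overlap, so that fit cannot separate age from sex here. In Adult HPC, the 3 libraries with high Y-linked RNA had 5.28, 6.05 and 6.29 RPKM of Esr1 and the library with high Xist RNA had 7.20 RPKM. At P14, the HPC library with high Y-linked RNA had 1.80 RPKM, the lowest of 5. In P14 HSC, the 2 libraries without Y-linked RNA had 1.01 and 1.65 RPKM, on either side of the 1.04 and 1.41 RPKM of the 2 with it.

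Markers of other cells moved with age as well, and their part in the level of Esr1 was not tested. The summed level of 7 stroma markers was 2.41 to 3.27 RPKM in Adult HSC, against 0.396 to 0.543 RPKM in E16 HSC, and 8.68 to 16.9 RPKM in Adult HPC, against 3.66 to 8.19 RPKM in E16 HPC. Pdgfrb made up most of it, and the collagen genes Col1a1 and Col3a1, Lepr, Pdgfra, Dcn and Cxcl12 each averaged at most 0.0912 RPKM in these 4 groups. The 8 macrophage markers summed to 51.6 to 92.9 RPKM in Adult HSC, against 43.9 to 67.3 RPKM in E16 HSC, and to 41.7 to 92.5 RPKM in Adult HPC, against 17.2 to 37.7 RPKM in E16 HPC. Cd68 had the highest mean of the 8 in each of these groups. It was lower in Adult HSC (32.2 RPKM) than in E16 HSC (53.2 RPKM), and higher in Adult HPC (40.5 RPKM) than in E16 HPC (18.7 RPKM). Some other members differed more between the ages. C1qb, a complement subunit of tissue macrophages, averaged 19.9 RPKM in Adult HSC and 1.09 RPKM in E16 HSC, and 13.4 RPKM in Adult HPC and 0.687 RPKM in E16 HPC. Vcam1, an adhesion molecule, averaged 11.8 RPKM in Adult HSC and 0.226 RPKM in E16 HSC, and 12.3 RPKM in Adult HPC and 0.213 RPKM in E16 HPC. C1qa, Mrc1 and Adgre1 were higher on average in Adult than in E16 cells of both types, and Csf1r was lower. Marco averaged at most 0.0736 RPKM in these groups. Adult HPC replicate 3 held the least C1qb and Vcam1 of its group, 2.6 and 1.13 RPKM, with 6.05 RPKM of Esr1, while the other 3 held 14.9 to 19.6 RPKM of C1qb with 5.28 to 7.20 RPKM of Esr1. The 5 T and NK cell markers summed to 490 to 609 RPKM in Adult HPC, against 89.7 to 104 RPKM in E16 HPC, nearly all of it Nkg7, with Cd3e and Cd8a at 0 in every one of these libraries. In HSC they summed to 73.7 to 95.1 RPKM in Adult cells, against 13.8 to 31.0 RPKM in E16 cells. Megakaryocyte markers summed to 221 to 273 RPKM in Adult HSC, against 124 to 144 RPKM in E16 HSC, and to 36.3 to 77.9 RPKM in Adult HPC, against 76.5 to 136 RPKM in E16 HPC. The 6 erythroid markers went the other way, at 44.7 to 64.2 RPKM in Adult HSC, against 904 to 1250 RPKM in E16 HSC.

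Among 48 receptors, the nuclear receptors with the membrane receptor Gper1, Esr1 stood higher in the order in Adult than in E16 cells. By mean RPKM it ranked 10 in Adult HSC and 31 in E16 HSC, and 7 in Adult HPC and 24 in E16 HPC. Esr2, which encodes estrogen receptor beta, averaged 0.0526 ± 0.0618 RPKM in Adult HSC and 0.0778 ± 0.0922 RPKM in E16 HSC, and 0.0202 RPKM in Adult HPC and 0.120 RPKM in E16 HPC. Gper1, the membrane estrogen receptor, averaged 0.00496 RPKM in Adult HSC and 0.0740 RPKM in E16 HSC, and 0.0663 RPKM in Adult HPC and 0.176 RPKM in E16 HPC. In Adult cells, Esr1 thus had more RNA per length than either other estrogen receptor.

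The related orphan receptors were low too. Esrra averaged 0.411 RPKM in Adult HSC and 0.369 RPKM in E16 HSC (adjusted p = 0.998), Esrrg 0.188 RPKM in Adult HSC and 0.0316 RPKM in E16 HSC, and Esrrb at most 0.00240 RPKM in these groups. Pgr, the progesterone receptor and a classic estrogen target, averaged 0.241 ± 0.215 RPKM in Adult HSC and 0.0230 ± 0.0459 RPKM in E16 HSC, too low to test. In HPC it averaged 0.0944 RPKM in Adult cells and was at 0 in all 3 E16 libraries. The mineralocorticoid receptor Nr3c2 averaged 0.466 RPKM in Adult HSC and 0.0895 RPKM in E16 HSC.

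Nr3c1, the glucocorticoid receptor, was the steroid receptor with the most RNA at both ages. It rose to 11.6 ± 2.4 RPKM in Adult HSC, against 5.95 ± 0.55 RPKM in E16 HSC, a log2 fold change of 0.90 ± 0.15 (adjusted p = 6.37e-05). In HPC it averaged 12.5 ± 0.9 RPKM in Adult cells and 5.50 ± 1.26 RPKM in E16 cells. Of the other 38 nuclear receptors, 10 were higher and 1 lower in Adult than in E16 HSC among the 21 that could be tested, beside 24.5% of all genes called. Vdr, the vitamin D receptor, rose to 9.88 ± 1.83 RPKM in Adult HSC, against 4.54 ± 0.76 RPKM in E16 HSC (adjusted p = 0.00108). Rara, a retinoic acid receptor, fell to 0.519 ± 0.284 RPKM in Adult HSC, against 2.19 ± 0.44 RPKM in E16 HSC (adjusted p = 0.00136). In HPC, 6 of 25 tested were higher and 1 lower, beside 27% of all genes, and Rarg averaged 0.729 RPKM in Adult cells and 0.174 RPKM in E16 cells.

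**Figure D3:**
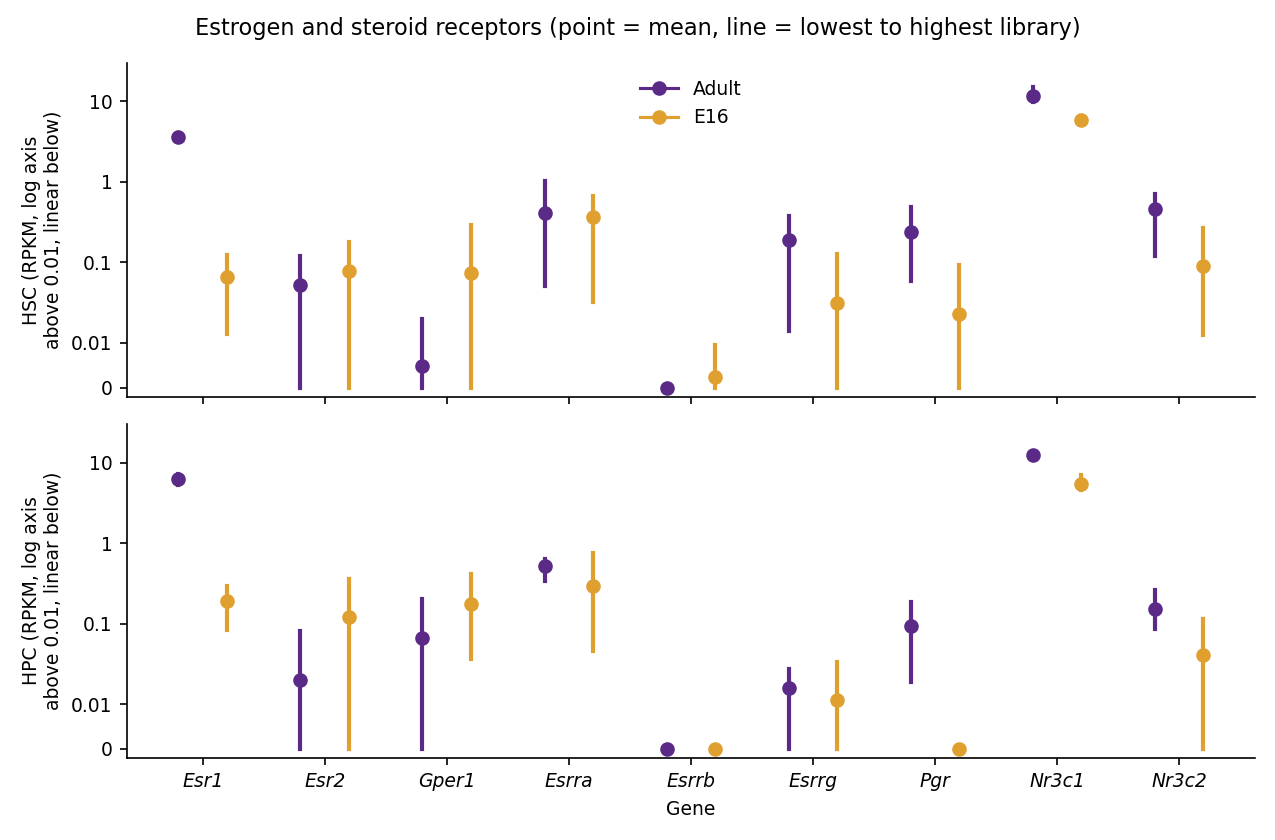
Level (RPKM) of Esr1 and of 8 estrogen, steroid and related receptors in Adult (purple) and E16 (yellow) HSC and HPC, with the mean as a point and the lowest to highest library as a line, on an axis that is logarithmic above 0.01 and linear below. By mean, Esr1 and Nr3c1 are the receptors drawn that lie above 1 RPKM in Adult cells, and Nr3c1 alone lies above it at E16.

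The proteins that work with the receptor were taken as lists, which share a few genes. Of 129 distinct listed genes tested in HSC, 36 were higher and 11 lower in Adult than in E16 cells, which is 36.4% called beside 24.5% of all genes. With the Y-linked level as a covariate, 25 of the listed genes were called. Calls over all genes fell with this covariate as well, and both counts are given in the section on processing at the end. In HPC, 26 were higher and 10 lower among 141 tested, or 25.5% beside 27% of all genes, in a comparison that served to choose Esr1, so the HPC counts and levels below are a description only. Medians below are log2 fold changes, beside 0.022 over all genes in HSC and 0.0531 in HPC.

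Coactivators, which bridge the receptor to the transcription machinery, were split. In HSC 2 were higher and 2 lower of 19 tested (median 0.0299), beside 24.5% of all genes called. Ncoa1, which encodes the steroid receptor coactivator SRC-1, rose to 6.31 ± 1.41 RPKM in Adult HSC, against 2.29 ± 0.76 RPKM in E16 HSC (adjusted p = 5.58e-05), and averaged 4.84 ± 0.44 RPKM in Adult HPC and 1.78 ± 0.24 RPKM in E16 HPC. Ep300, a histone acetyltransferase, also rose (log2 fold change 0.68 ± 0.22, adjusted p = 0.0215). Ncoa7 fell to 16.4 ± 2.9 RPKM in Adult HSC, against 36.2 ± 3.6 RPKM in E16 HSC (adjusted p = 5.49e-05), and Ncoa3 fell by 0.42 on the log2 scale (adjusted p = 0.0409). In HPC 1 of 19 was higher and none lower, beside 27% of all genes called.

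Corepressors were likewise split in HSC, with 2 higher and 2 lower of 14 tested (median 0.198), beside 24.5% of all genes called. Ncor1, the nuclear receptor corepressor, rose to 11.5 ± 4.6 RPKM in Adult HSC, against 6.14 ± 0.90 RPKM in E16 HSC (adjusted p = 0.00211), and Tbl1xr1, a member of its complex, rose by 0.59 ± 0.16 (adjusted p = 0.00701). Hdac1, a histone deacetylase, fell to 23.1 ± 1.6 RPKM in Adult HSC, against 34.0 ± 1.9 RPKM in E16 HSC (adjusted p = 0.000272). In HPC 2 of 14 were higher, beside 27% of all genes called. They were Ncor1 at 14.9 RPKM in Adult cells and 8.89 RPKM in E16 cells and Safb2 at 4.93 RPKM in Adult cells and 2.51 RPKM in E16 cells. Of the 11 chaperones, 1 was higher and 2 lower in HSC, beside 24.5% of all genes called. Fkbp5, an immunophilin of the receptor complex and itself a glucocorticoid target, rose to 9.61 ± 2.47 RPKM in Adult HSC, against 3.55 ± 0.89 RPKM in E16 HSC (adjusted p = 8.42e-05). Its relative Fkbp4 fell to 99.1 ± 20.9 RPKM in Adult HSC, against 146 ± 14 RPKM in E16 HSC (adjusted p = 0.0271), and Hspa8 fell by 0.58 on the log2 scale (adjusted p = 0.00897).

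Of the factors that bind DNA beside the receptor, 3 were higher and 1 lower of 9 tested in HSC (median 0.208). Over all genes, 24.5% were called. Gata2, a regulator of stem cells, rose to 59.1 ± 7.1 RPKM in Adult HSC, against 30.3 ± 2.9 RPKM in E16 HSC (adjusted p = 3.82e-05). Gata3 rose by 0.73 ± 0.16 (adjusted p = 0.00112). Jun, a subunit of AP-1, fell to 2.36 ± 1.02 RPKM in Adult HSC, against 6.98 ± 5.80 RPKM in E16 HSC (adjusted p = 0.03). In HPC Gata3 was the 1 of 9 called, beside 27% of all genes, at 7.12 RPKM in Adult cells and 4.15 RPKM in E16 cells.

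Genes reported as estrogen receptor targets in other tissues, mostly in human breast cancer cells, did not move as a block. In HSC 8 were higher and 4 lower of 25 tested (median 0.0616), beside 24.5% of all genes called. In HPC 7 were higher and 4 lower of 31, beside 27% of all genes. Myc, a transcription factor of growth, rose to 170 ± 25 RPKM in Adult HSC, against 59.5 ± 4.3 RPKM in E16 HSC (adjusted p = 1e-08). Bcl2, which blocks apoptosis, rose to 7.27 ± 0.69 RPKM in Adult HSC, against 2.05 ± 0.26 RPKM in E16 HSC (adjusted p = 7.2e-07), and averaged 8.72 ± 1.75 RPKM in Adult HPC and 1.60 ± 0.41 RPKM in E16 HPC. The lysosomal protease gene Ctsd rose to 325 ± 19 RPKM in Adult HSC, against 196 ± 16 RPKM in E16 HSC (adjusted p = 2.83e-07), and Susd3 to 33.3 ± 4.3 RPKM in Adult HSC, against 16.4 ± 0.6 RPKM in E16 HSC (adjusted p = 4.81e-06). Greb1, among the most direct targets in breast cells, averaged 0.0532 RPKM in Adult HSC and 0.0378 RPKM in E16 HSC and was too low to test.

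Estrogen signalling in mouse stem cells has been tied to the Ire1-Xbp1 arm of the unfolded protein response. In a list of that arm and of protein folding, 6 of 19 genes were higher and none lower in Adult than in E16 HSC (median 0.463), beside 24.5% of all genes called. They were Ern1, Hspa5, Dnajb9, Dnajc3, Herpud1 and Ddit3, of which Ddit3 is known as a target of the neighbouring PERK arm. Ern1, which encodes the sensor Ire1 alpha, rose to 4.01 ± 0.77 RPKM in Adult HSC, against 1.01 ± 0.27 RPKM in E16 HSC (log2 fold change 1.59 ± 0.30, adjusted p = 0.000235). Ddit3, a stress transcription factor, rose to 19.9 ± 2.6 RPKM in Adult HSC, against 7.53 ± 1.79 RPKM in E16 HSC (adjusted p = 1.24e-05), and Herpud1, of endoplasmic reticulum degradation, to 112 ± 13.6 RPKM in Adult HSC, against 62.8 ± 5.3 RPKM in E16 HSC (adjusted p = 9.48e-07). Xbp1 itself had 41.6 ± 14.1 RPKM in Adult HSC and 25.0 ± 1.4 RPKM in E16 HSC and was not called (adjusted p = 0.07). In HPC 5 were higher and 2 lower, beside 27% of all genes, with Ern1 at 3.71 RPKM in Adult cells and 1.80 RPKM in E16 cells.

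Among enzymes of steroid synthesis and clearance, 3 were higher and none lower of 12 tested in HSC (median 0.332), beside 24.5% of all genes called. Sult1a1, a sulfotransferase that inactivates phenols including estrogens, rose to 63.2 ± 15.9 RPKM in Adult HSC, against 0.601 ± 0.723 RPKM in E16 HSC (log2 fold change 6.06 ± 0.45, adjusted p = 5.68e-11). Cyp11a1, the enzyme that starts steroid synthesis from cholesterol, rose to 6.85 ± 1.36 RPKM in Adult HSC, against 0.132 ± 0.095 RPKM in E16 HSC (adjusted p = 1.22e-07). It averaged 16.1 ± 7.4 RPKM in Adult HPC and 2.50 ± 1.16 RPKM in E16 HPC. Aromatase, Cyp19a1, which makes estrogens, did not pass the filter on low values in either cell type.

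The genes whose pattern was most like that of Esr1 were ranked by the mean of 2 Pearson correlations of log2 values, over 26 HSC and over 20 HPC libraries, among 11120 genes. The points share the age of the animals and the depth of each library, so the value describes a common course with age and nothing more, and its median over all genes was 0.0318. Aff3, a nuclear transcription elongation factor of lymphoid cells, was first (mean r = 0.925, 0.885 in HSC and 0.965 in HPC). It averaged 12.1 ± 4.3 RPKM in Adult HSC and 1.69 ± 0.33 RPKM in E16 HSC. The other 7, with mean r down to 0.892, were H2-Q7, Alcam, Apol7e, H2-DMa, Cd72, H2-Q6 and Cd163. Of these, H2-Q6 and H2-Q7 are MHC class I genes with close copies in the genome, so their reads may be shared out among copies, and H2-DMa serves peptide loading of MHC class II. Alcam and Cd72 encode surface molecules of leukocytes, and Cd163 a scavenger receptor of macrophages, whose other markers are given above. Cd163 averaged 2.89 RPKM in Adult HSC and 0.0296 RPKM in E16 HSC. Only 4 of these 8 genes were among the first 8 by rank correlation.

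The opposite course was held by Nrep (mean r = -0.93), Hmga2, Pdgfb and Fstl1. Hmga2, a chromatin protein of fetal stem cells, averaged 2.97 ± 0.59 RPKM in Adult HSC and 39.3 ± 4.2 RPKM in E16 HSC, and 3.14 ± 0.59 RPKM in Adult HPC and 31.8 ± 1.7 RPKM in E16 HPC. Nrep averaged 0.829 ± 0.423 RPKM in Adult HSC and 13.2 ± 1.6 RPKM in E16 HSC. The promoter windows of the 8 most similar genes held GGTCA or TGACC in H2-Q7, Apol7e and H2-Q6, beside 35.2% of all windows, and the full estrogen response element in none. GAAANNGAAA was found in Apol7e, beside 2.98% of all windows, and a GATA site in H2-DMa, beside 9.99%.

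**Figure D4:**
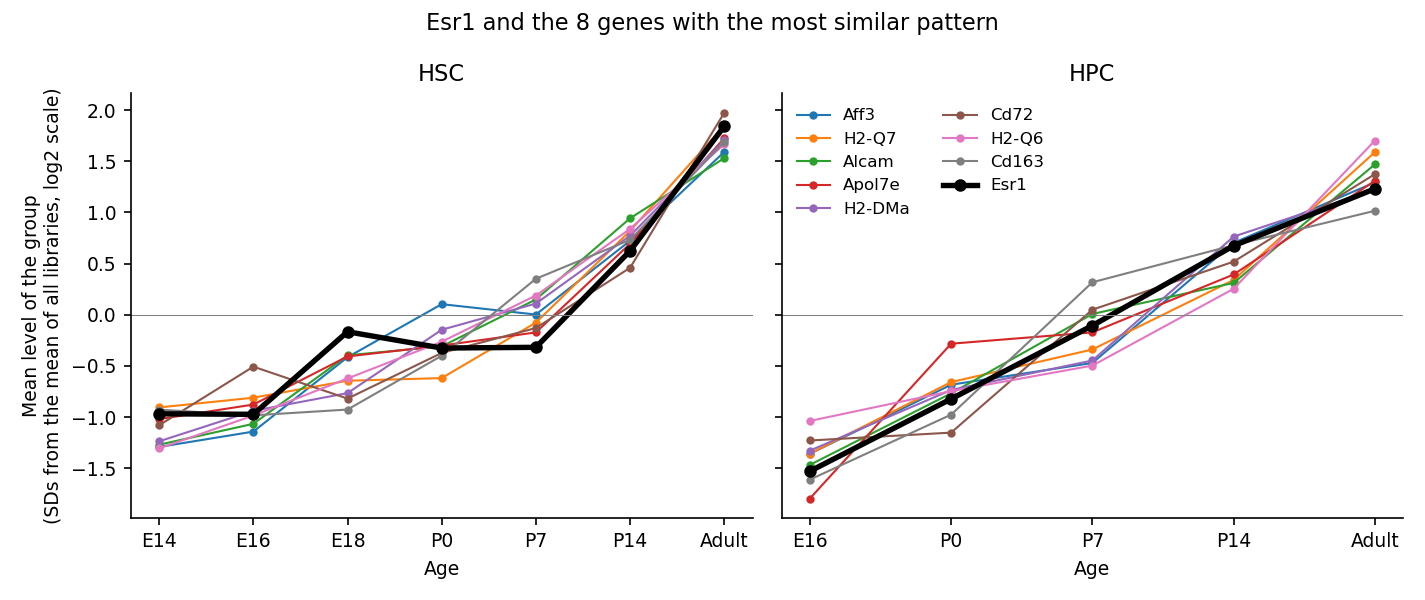
Mean level by age of Esr1 (black) and of the 8 genes most like it, in HSC (left) and HPC (right), in standard deviations from the mean of all libraries of the cell type on the log2 scale. All 9 genes are lowest at E14 or E16 and highest in Adult cells.

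At P0, Esr1 was not called for loss of Ifnar in HSC or in HPC, and the libraries of the genotypes overlapped. Ifnar ko HSC had 0.209, 0.234, 0.236 and 0.261 RPKM, all within the wild-type range of 0.0776 to 0.284 RPKM. The log2 fold change was 0.41 ± 0.33 (95% interval -0.30 to 1.12, adjusted p = 0.747), where 1.14% of 16224 genes were called. In HPC, Ifnar ko libraries had 0.322, 0.343, 0.576 and 0.811 RPKM and wild-type libraries 0.254, 0.405, 0.562 and 0.649 RPKM. The log2 fold change was 0.07 ± 0.36 (interval -0.71 to 0.84, adjusted p = 0.932), in a comparison where 10.4% of 12988 genes were called. A p that misses the threshold does not show that the levels were alike, and both intervals hold changes in either direction.

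Of 130 distinct listed genes tested in P0 HPC, 9 were higher and 2 lower in Ifnar ko, or 8.46% called beside 10.4% of all genes. Among the cooperating factors 5 of 9 were higher in Ifnar ko, among them Gata2 by 1.05 ± 0.18 (adjusted p = 0.00329), Jun by 1.91 ± 0.23 (adjusted p = 0.000197), Runx1 by 0.51 ± 0.11 (adjusted p = 0.00864) and Gata3 by 0.69 ± 0.19 (adjusted p = 0.032). Nr3c1 was higher by 0.45 ± 0.12 (adjusted p = 0.0355). The ko libraries of P0 HPC all held Y-linked RNA and the wild-type libraries held it in 2 of 4. Summed marker levels differed between these groups as well. Progenitor markers summed to 765 to 1041 RPKM in ko, against 1547 to 1764 RPKM in wild type, megakaryocyte markers to 201 to 369 RPKM in ko, against 103 to 160 RPKM in wild type, and B cell markers to 0.738 to 2.89 RPKM in ko, against 9.43 to 18.6 RPKM in wild type. The part of these cells in the listed changes was not tested. In P0 HSC 1 of 140 listed genes was called, beside 1.14% of all genes.

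At P14, no contrast of genotypes was called for Esr1 with all 17 libraries, and 1 control library bore on that. HPC that were Ifnar -/- Flt3 ITD/+ had 1.68, 1.78, 1.91, 2.04 and 2.27 RPKM, Ifnar -/- Flt3 +/+ had 1.38, 1.60, 1.65 and 2.09 RPKM, and Ifnar +/- Flt3 ITD/+ had 1.12, 1.13, 1.36 and 1.56 RPKM. The Ifnar +/- Flt3 +/+ libraries had 0.662, 0.836, 1.08 and 2.19 RPKM. Of the last group, 3 libraries lay below every other P14 genotype library, while replicate 2 stood among the Ifnar -/- libraries. That same library had a summed level of HSC markers of 682 RPKM, against 282 to 410 RPKM in the other 3 of its group. Both of its values lay within the ranges of age-series P14 HPC, 1.80 to 4.42 RPKM for Esr1 and 442 to 689 for HSC markers. The values of the other 3 lay below those ranges. For Esr1, so did every Ifnar +/- Flt3 ITD/+ library, at 1.12 to 1.56 RPKM, and some libraries of both Ifnar -/- groups. The age and genotype series also differ in depth and title codes. Replicate 1 differed too, with progenitor markers at 5393 RPKM, against 801 to 1228 RPKM in the rest of its group. The gap test of Dixon did not flag an outlier of Esr1 in the group (0.729, critical value 0.829). Which library is typical of this genotype was not tested.

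**Figure D5:**
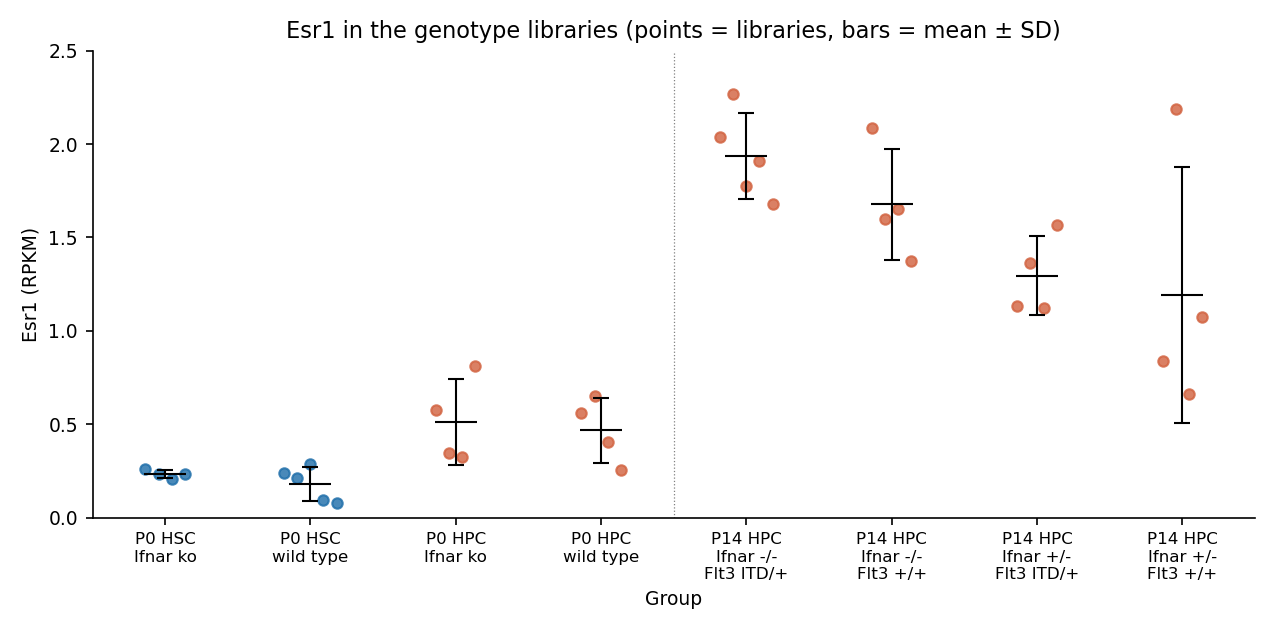
Esr1 level (RPKM) in each library of the genotype series, with mean ± SD, for P0 HSC (blue), P0 HPC and P14 HPC (orange). At P14 the Ifnar -/- Flt3 ITD/+ libraries sit at 1.68 to 2.27 RPKM, and Ifnar +/- Flt3 +/+ replicate 2, at 2.19 RPKM, stands apart from the other 3 of its group.

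Loss of Ifnar was tested in each Flt3 background. In Flt3 ITD/+ cells, all Ifnar -/- libraries lay above all Ifnar +/- libraries (1.94 ± 0.23 RPKM, n = 5, against 1.30 ± 0.21 RPKM, n = 4). The log2 fold change was 0.54 ± 0.23 (95% interval 0.06 to 1.01) and was not called (adjusted p = 0.2, 4.03% of 17464 genes called), except when these 2 groups were fitted alone (0.53, adjusted p = 0.0419). In Flt3 +/+ cells, Ifnar -/- averaged 1.68 ± 0.30 RPKM and Ifnar +/- 1.19 ± 0.69 RPKM (n = 4 each), a log2 fold change of 0.34 ± 0.24 (adjusted p = 0.338, 4.39% called). Without replicate 2 of Ifnar +/- Flt3 +/+ it was 0.74 and called (adjusted p = 0.00259), and the number of genes called over the whole table was 6223, against 766 with that library.

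The Flt3 duplication was tested in each Ifnar background. In Ifnar +/- cells, Flt3 ITD/+ averaged 1.30 ± 0.21 RPKM and Flt3 +/+ 1.19 ± 0.69 RPKM, a log2 fold change of 0.09 ± 0.24 (adjusted p = 0.835, 4.84% called). Without replicate 2 it was 0.49 (adjusted p = 0.0306, 5804 genes called). In Ifnar -/- cells, Flt3 ITD/+ averaged 1.94 ± 0.23 RPKM and Flt3 +/+ 1.68 ± 0.30 RPKM, a change of 0.29 ± 0.22 (interval -0.18 to 0.76, adjusted p = 0.61, 0.962% called). Cells with both mutations against the Ifnar +/- Flt3 +/+ cells gave 0.62 ± 0.23 (interval 0.15 to 1.10, adjusted p = 0.176, 1.88% called), and 1.01 without replicate 2 (adjusted p = 0.000967). The interaction of the 2 mutations was 0.20 ± 0.33 (interval -0.48 to 0.88, adjusted p = 0.712), in a test that called 0.0115% of genes, and -0.21 without replicate 2 (adjusted p = 0.494). These contrasts share groups and are not independent of each other.

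With the Flt3 duplication in Ifnar +/- cells at P14, 9 of 146 distinct listed genes tested were higher and 3 lower, or 8.22% beside 4.84% of all genes. Without Ifnar +/- Flt3 +/+ replicate 2, 36 of 149 were higher and 11 lower, or 31.5% beside 32.5% of all genes. Bcl2 was higher by 1.19 ± 0.18 (3.60 ± 0.86 RPKM in Flt3 ITD/+, against 1.49 ± 0.25 RPKM in Flt3 +/+, adjusted p = 0.0011) and Myc by 1.10 ± 0.25 (adjusted p = 0.0187). Ccnd1, which encodes cyclin D1, was lower by -2.42 ± 0.40 in these cells (adjusted p = 0.00209) and by -2.20 ± 0.36 in Ifnar -/- cells (adjusted p = 0.00284). Without replicate 2 the log2 fold changes in Ifnar +/- cells were 1.22 for Bcl2, 1.4 for Myc and -2.39 for Ccnd1, all still called (adjusted p = 0.000439, 0.000467 and 0.000773). With loss of Ifnar in Flt3 ITD/+ cells, 2 of 146 distinct listed genes were higher and 4 lower, or 4.11% beside 4.03% of all genes. Bcl2 was lower by -1.49 ± 0.17 (1.31 ± 0.26 RPKM in Ifnar -/-, against 3.60 ± 0.86 RPKM in Ifnar +/-, adjusted p = 2.86e-05) and Myc by -1.27 ± 0.23 (adjusted p = 0.00314). Ltf and Ptges, from the same list of reported targets, were higher by 1.775 ± 0.32 and 1.504 ± 0.34 (adjusted p = 0.00314 and 0.0172). Progenitor markers summed to 1008 to 1343 RPKM in Ifnar -/- Flt3 ITD/+, against 1498 to 2311 RPKM in Ifnar +/- Flt3 ITD/+, and erythroid markers to 149 to 248 RPKM in Ifnar -/- Flt3 ITD/+, against 78.5 to 109 RPKM in Ifnar +/- Flt3 ITD/+, and their part in these values, and in that of Esr1, was not tested. Bcl2 was the 1 listed gene called for the interaction (-1.68 ± 0.24, adjusted p = 0.0331), a call lost with the replicate number as a block (-1.60, adjusted p = 0.089). Without replicate 2 of Ifnar +/- Flt3 +/+ it was -1.72 (adjusted p = 0.000497), where 31.3% of all genes were called.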

How the data were processed

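RNA was extracted with a Qiagen micro kit and amplified with a Clontech kit, per the labels' protocols. The submitters' processing notes name STAR 3.0.4, Subread and featureCounts 1.4.5, while the genome build and the use of strand are not given in the sources used here. The deposited HPC columns of the age series and all columns of the genotype series hold read counts per gene, and the deposited HSC columns of the age series hold RPKM. The planned count test was therefore replaced for HSC by limma 3.58.1 on log2(RPKM + 0.5), with TMM scaling, a robust trend and a filter of more than 1 RPKM in at least 3 libraries. This log2 scale was computed from the RPKM deposited by the authors. HPC and HSC were compared on the same scale. Whole reads were recovered from the RPKM of all 25622 detected genes (tolerance 1e-05), of which 16638 matched the exon length of GENCODE M21, and Esr1 gave whole reads in 26 of 26 HSC libraries with a length of 13661 bases. Counts were tested with the edgeR 4.0.16 quasi-likelihood test (R 4.3.3) after its own filter and TMM scaling. All p-values are two-sided and adjusted by Benjamini-Hochberg over all genes tested, with calls at 0.05. The alternatives tried were DESeq2 1.42.0, other pseudocounts, filters and scalings, a Y-linked covariate, a replicate block and leaving out each library. The scripts were tested on simulated data. Poisson intervals and 3-read floors cover counting error only. Groups came from the titles and characteristics, and 1 column of values was not used. Esr1 and the gene lists were chosen with earlier results of these data known. Named were the steroid receptors, up to 4 called members of each list by smallest adjusted p in Adult against E16, the 8 genes most like Esr1 and the 4 most opposite, except for a few items that are not reported here. Greb1, Xbp1, Cyp19a1, the genotype list genes and the marker genes were named after their values were seen.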

Additional observations from a re-analysis of the deposited data

Results flagged for a closer look

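Bcl2 met a test of a difference between groups in P14 HPC. The effect of the Flt3 duplication in Ifnar -/- cells minus that in Ifnar +/- cells was -1.68 ± 0.24 on the log2 scale (SE, edgeR, adjusted p = 0.0331). The means behind it were 1.31 and 1.94 RPKM in Ifnar -/- Flt3 ITD/+ and Flt3 +/+ cells, and 3.60 and 1.49 RPKM in Ifnar +/- Flt3 ITD/+ and Flt3 +/+ cells. The interaction called 2 of 17464 genes with all libraries. With the replicate number as a block the value was -1.60 and no longer called (adjusted p = 0.089), and no gene was. Without Ifnar +/- Flt3 +/+ replicate 2, which stood apart, it was -1.72 (adjusted p = 0.000497), with 5592 genes called.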

How the results depend on the processing

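The limits of these data are the 3 to 27 reads of Esr1 in E16 HSC libraries, title codes and sexes that differ between groups, and 1 control library that stood apart. Of 180 values from other settings, 166 kept their direction and their side of the threshold, 4 lost the call, 4 gained it and 6 changed sign, all log2 fold changes. A pseudocount of 0.1 gave 0.00526 for E16 against E14 HSC and 1.48 for Adult against P14 HSC. Adult against P14 HSC was 1.53 with edgeR and 1.54 with DESeq2 on recovered reads, no longer called, and E18 against E16 HSC was 3.09 and 3.13, now called. P7 against P0 HSC was -0.00448 with a pseudocount of 1, -0.00257 without TMM scaling, -0.0615 with edgeR and -0.0513 with DESeq2. The change from P0 to P14 in HSC minus HPC was -0.80 with a pseudocount of 1. With the Y-linked covariate, P14 against P7 HPC was 1.16, the P0 HPC ko effect -0.0178, and 25 of the listed genes were called in HSC against 47, with 1888 against 3274 over all genes. Fitting the 2 groups alone gave 0.53 for loss of Ifnar in Flt3 ITD/+ cells. Rank correlation shared 4 of the 8 genes most like Esr1. The cause of these shifts was not tested.

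Leaving out 1 library at a time gave -0.0947 to 0.0403 for E16 against E14 HSC, -0.41 to 0.18 for P0 against E18, -0.26 to 0.18 for P7 against P0, -0.21 to 0.19 for HSC against HPC at P0, -1.19 to -0.77 for the change in HSC minus HPC, 4.49 to 5.24 for Adult against E16 HPC, 0.77 to 1.52 for P0 against E16 HPC and -0.23 to 0.26 for the P0 HPC ko effect. At P14 it gave -0.0835 to 0.489 for the Flt3 duplication in Ifnar +/- cells, 0.17 to 0.74 for loss of Ifnar in Flt3 +/+ cells, 0.44 to 1.01 for both mutations and -0.21 to 0.36 for the interaction. The calls gained at P14 all came without Ifnar +/- Flt3 +/+ replicate 2. Leaving that library out of the list counts was chosen after seeing the data. For the Flt3 duplication in Ifnar +/- cells this gave 47 listed genes against 12, and for loss of Ifnar in Flt3 +/+ cells 67 against 3. For both mutations it gave 43 against 7, and for the interaction 54 against 1. Without that library these were 31.5%, 45%, 28.9% and 36.2% of the listed genes tested. Beside them, 32.5%, 34.9%, 22.1% and 31.3% of all genes were called. Adult against E16 HSC stayed between 2.84 and 2.97.

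Replicate numbers did not pair the samples: same-numbered libraries correlated between -0.43 and 0.47 in their deviations, and in no comparison was every pair above 0.1. With the replicate number as a block, Adult against E16 HSC was 2.89 (adjusted p = 1.28e-07), and none of 27 comparisons changed direction or call for Esr1. The block moved the genes called from 846 to 1524 for the Flt3 duplication in Ifnar +/- cells, from 766 to 1293 and from 704 to 452 for loss of Ifnar in Flt3 +/+ and Flt3 ITD/+ cells, and from 2 to 0 for the interaction.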
